A study of Mus musculus with 12 samples.

Results

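The mitochondrial respiratory chain was followed here through the genes of its nuclear-encoded subunits in pulmonary CD11c+ cells of mice infected with Pneumocystis. Members were all measured genes whose single symbol starts with Nduf, Uqcr, Atp5, Cox4, Cox5, Cox6, Cox7 or Cox8, or is Sdha, Sdhb, Sdhc, Sdhd or Cyc1. This rule gave 91 of 18193 genes, measured by 180 of 45101 probe sets. Complex I had 36 genes, complex II 4, complex III 9, complex IV 17 and complex V 17. The same symbol rule also took in 8 complex I assembly factors (symbols starting Ndufaf), which help build complex I and are not subunits of it, so they are described apart.

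The 12 samples were CD11c+ lung cells of 12 mice, 1 Affymetrix array per mouse. Every mouse had received Pneumocystis, a fungus that infects the lung, into the trachea, and no uninfected group was analysed here. There were 4 groups of 3 mice: wildtype at day 7, IFNAR-/- at day 7, wildtype at day 14 and IFNAR-/- at day 14 after infection, where IFNAR-/- mice lack the receptor for type I interferons. Cells were taken from digested lung with magnetic beads against CD11c, with a stated purity above 90% and under 5% lymphocytes. CD11c is carried by alveolar macrophages and by dendritic cells, so the isolate holds both. The labels used here give no strain, sex or age.

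The respiratory chain sits in the inner membrane of mitochondria. Complex I takes electrons from NADH and complex II, which is also an enzyme of the citric acid cycle, takes them from succinate. Ubiquinone carries them to complex III, cytochrome c carries them on to complex IV, and complex IV hands them to oxygen. Complexes I, III and IV move protons out of the matrix, and complex V, the ATP synthase, makes ATP as protons flow back. In macrophages and dendritic cells the balance between respiration and glycolysis is known to shift with activation, and type I interferon is known as one of the signals that alter it.

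All values are log2 ratios. Each probe set was deposited relative to roughly its own 12-array median, so a value of 0 is the middle array of that probe set and levels of different genes cannot be set against each other. Probe sets of the same gene were averaged. Differences between groups are log2 differences with their standard error (SE), n = 3 mice per group, from a limma model over all 18193 genes. A gene is said to rise or fall, or to be higher or lower, where its Benjamini-Hochberg adjusted p is under 0.05. The 4 groups allow 5 comparisons: the genotypes at each day, the days within each genotype, and the change of the genotype difference between the days. Comparisons of genotype and of day use the same arrays, so they are not independent of each other.

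Some arrays stood apart in ways the groups do not define, and these values bear on what follows. The 5′ minus 3′ signal of the actin and Gapdh control probe sets, a sign of RNA integrity, was -0.24, -0.18 and -0.91 in the wildtype day 14 arrays. It was between 0.08 and 0.18 in wildtype mice at day 7 and between 0.06 and 0.16 in IFNAR-/- mice at day 14. In IFNAR-/- mice at day 7 it ran from -0.52 to 0.11. Poly-A control probe sets lay between -3.34 and -1.82 in wildtype day 14 arrays and between 0.79 and 2.09 in wildtype day 7 arrays. Probe sets of 18S ribosomal RNA were at 2.5, 0.30 and 0.93 in the wildtype day 14 arrays and between -0.18 and 0.07 in those of wildtype day 7, and from -0.45 to 0.92 in IFNAR-/- arrays. Markers of other lung cells were raised in 2 arrays of day 7. IFNAR-/- mouse 3 had a median of 2.13 over 17 epithelial markers, 2.60 over 14 endothelial ones and 1.51 over 16 of fibroblasts and muscle, and wildtype mouse 1 had 1.86, 1.54 and 0.40. In the other 10 arrays these medians were between -0.48 and 0.43. IFNAR-/- day 14 mouse 2 had the widest spread of values, with an interquartile range over genes of 0.58. Ifnar1, the gene of one chain of the type I interferon receptor, was at -0.53, -1.38 and -0.26 in IFNAR-/- mice at day 7 against 0.08, 0.64 and 0.07 in wildtype mice. At day 14 it was at 0.10, -1.01 and 0.39 in IFNAR-/- mice and -0.15, 0.07 and 0.11 in wildtype mice, so the genotypes overlapped. Where its 2 probe sets lie relative to the deleted part is not given in the sources used here, so they do not check the labels.

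Promoters of respiratory chain genes are known for sites of NRF1 (nuclear respiratory factor 1) and of ETS family factors. RefSeq upstream windows of 250 bases (mouse assembly GRCm38.p6) were at hand for 74 of the 91 members and for 14369 measured genes. The NRF1 letters GCATGCGC, on either strand, were in 8 of the 74 member windows (10.8%) and in 3.58% of all windows. A longer form searched earlier, GCGCA then any base then GCGC, was in 11 member windows (14.9%) and in 6.38% of all, and the shorter form was chosen after these counts were seen. The ETS letters CCGGAAG were in 13 member windows (17.6%, against 10.6% of all) and the ERR letters AAGGTCA in 5 (6.76%, against 3.46%). The YY1 letters AAGATGGC were in 0 member windows, against 1.77% of all. The interferon response pattern, GAAA then any 2 bases then GAAA, was in 2 member windows (2.7%, against 2.64%). Members rose in wildtype or IFNAR-/- mice between the days in 23 cases, and 20 of these have a window. Of these 20 windows, 4 hold the NRF1 letters, and 2 others hold those of ETS. Most of the 20 windows thus hold no NRF1 letters. Atp5g2, Atp5l, Cox6a1 and Ndufaf4, also among the 8 members with these letters, did not rise. Whether the letters go with rising was not tested. The 4 windows of members that rose and hold the letters follow, with that of Ndufa4, which holds none and fell in IFNAR-/- mice. They were picked after the values were seen, the 250 bases run 5′ to 3′ up to the transcription start, and capitals mark the letters found.
Ndufa8, chr2:36049339-36049588, minus strand: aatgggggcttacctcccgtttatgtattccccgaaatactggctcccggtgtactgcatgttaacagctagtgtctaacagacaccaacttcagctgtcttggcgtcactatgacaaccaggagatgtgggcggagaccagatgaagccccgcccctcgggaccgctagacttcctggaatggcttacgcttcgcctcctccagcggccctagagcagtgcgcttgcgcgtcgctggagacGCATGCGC
Ndufa6, chr15:82354292-82354541, minus strand: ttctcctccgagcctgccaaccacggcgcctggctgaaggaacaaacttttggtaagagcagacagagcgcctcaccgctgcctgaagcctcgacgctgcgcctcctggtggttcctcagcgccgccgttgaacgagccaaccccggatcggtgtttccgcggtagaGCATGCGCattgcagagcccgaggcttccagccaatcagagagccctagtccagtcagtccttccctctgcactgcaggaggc
Sdhb, chr4:140961021-140961270, plus strand: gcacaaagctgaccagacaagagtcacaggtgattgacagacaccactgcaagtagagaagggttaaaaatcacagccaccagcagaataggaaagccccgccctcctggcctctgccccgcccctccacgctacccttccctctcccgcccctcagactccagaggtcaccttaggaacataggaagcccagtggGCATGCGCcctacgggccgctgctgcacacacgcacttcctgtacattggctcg
Atp5k, chr5:108434400-108434649, minus strand: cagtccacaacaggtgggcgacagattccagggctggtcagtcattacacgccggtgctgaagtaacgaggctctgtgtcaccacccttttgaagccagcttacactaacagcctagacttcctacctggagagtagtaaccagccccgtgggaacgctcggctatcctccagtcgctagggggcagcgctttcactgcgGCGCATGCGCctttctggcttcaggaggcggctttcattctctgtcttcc
Ndufa4, chr6:11907451-11907700, minus strand: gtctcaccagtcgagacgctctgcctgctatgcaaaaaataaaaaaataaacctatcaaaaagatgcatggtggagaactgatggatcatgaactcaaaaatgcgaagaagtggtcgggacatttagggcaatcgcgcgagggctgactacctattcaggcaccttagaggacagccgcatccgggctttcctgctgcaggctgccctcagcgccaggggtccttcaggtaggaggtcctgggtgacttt
The letters begin at position -8 in Ndufa8, -83 in Ndufa6 and -54 in Sdhb, counted from the start. In Atp5k a match on each strand, at -50 and -48, overlap in 1 run. A match of letters is a description and not evidence of binding.

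Between day 7 and day 14, respiratory chain genes rose in wildtype mice: 19 of 91 members were higher and 1 lower, against 3.88% of all genes higher and 4.1% lower (7.98% in either direction). The median difference over the members was 0.30, against 0.02 over all genes, and 81 of 91 members were above 0. In 49 members all 3 day 14 values lay above all 3 day 7 values, and in 3 they lay below, against 16% and 15.2% of all genes. The median over the 91 members was -0.13, -0.09 and 0.01 in the wildtype day 7 arrays and 0.33, 0.13 and 0.20 in the day 14 arrays. The arrays of the 2 days did not overlap in this median, and day 14 mouse 1 was the highest.

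Complex by complex, the median difference in wildtype mice was 0.40 for complex I, 0.23 for complex II, 0.30 for complex III, 0.23 for complex IV and 0.32 for complex V. For the 8 complex I assembly factors it was 0.10. Past the threshold were 12 of 36 complex I genes, 1 of 4 of complex II, 2 of 9 of complex III, 1 of 17 of complex IV, 2 of 17 of complex V and 1 of 8 assembly factors, all higher. The gene that fell, Uqcrc2, belongs to complex III. Whether the complexes differ from each other in this was not tested.

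**Figure D1:**
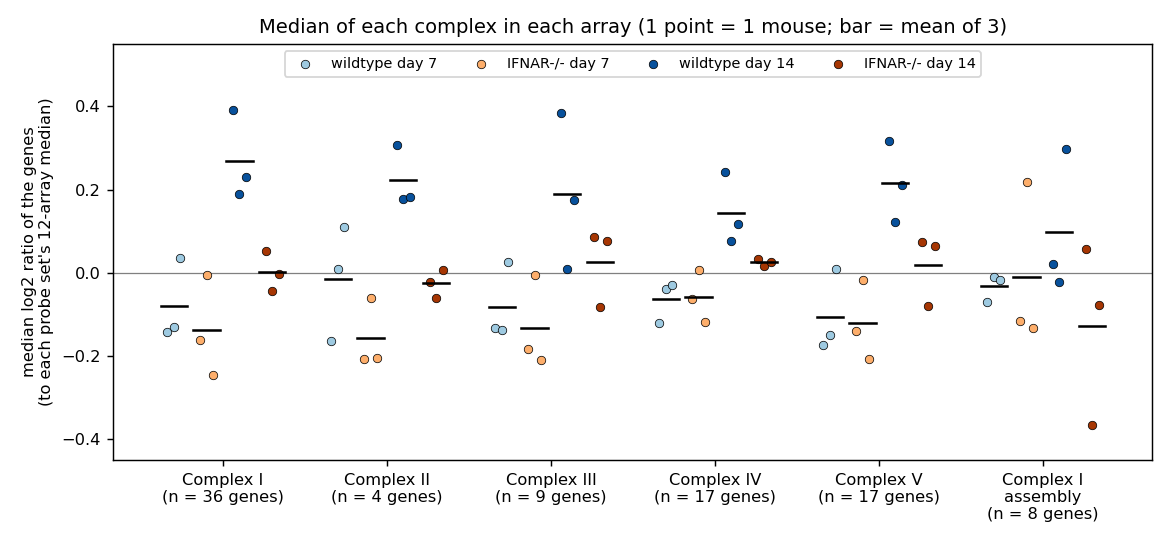
Median log2 ratio of the genes of each complex (vertical axis) in each array, where a point is 1 mouse and a bar is the mean of the 3 mice of a group. In complexes I, II, IV and V every wildtype day 14 point lies above every point of both day 7 groups.

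Among genes placed in complex I by symbol, 10 of 30 outside the core and 2 of 6 core genes rose, a share of 33.3% in each. The 30 are counted as accessory and include Ndufa4 and its paralog Ndufa4l2, which their symbols place here. Accessory subunits surround the catalytic core of the complex and serve its assembly and stability. Ndufb9, an accessory subunit, was at -0.24, -0.27 and -0.08 in wildtype mice at day 7 and at 0.58, 0.35 and 0.32 at day 14, a rise of 0.61 ± 0.11 (SE, adjusted p = 0.00828). Its groups did not overlap, although 1 of its 3 probe sets differed by 0.14 only, with the others at 0.79 and 0.91. Ndufa8, an accessory subunit whose upstream window is printed above, went from -0.27, -0.21 and -0.09 to 0.35, 0.39 and 0.55 (0.62 ± 0.11, adjusted p = 0.00906). Ndufc2 went from -0.07, -0.09 and 0.02 to 0.48, 0.35 and 0.45 (0.47 ± 0.09, adjusted p = 0.00987). All day 14 values of both genes were above all their day 7 values. The other complex I genes that rose were Ndufb10 (0.70), Ndufb3 (0.66), Ndufa6 (0.60), Ndufb11 (0.57), Ndufb5 (0.55), Ndufa7 (0.54), Ndufs8 (0.49), Ndufb2 (0.40) and Ndufs3 (0.39). Ndufs8 and Ndufs3 are 2 of the 6 core subunits measured, which carry or hold the electron path from NADH, and all 6 core differences were above 0. Ndufs1, the largest core subunit, differed by 0.28 ± 0.13 (adjusted p = 0.237) and Ndufv1, which binds NADH, by 0.27 ± 0.12 (adjusted p = 0.211). Furthest below 0 in complex I was Ndufa4, at -0.56 ± 0.17 (adjusted p = 0.064). Ndufa4 was named as a complex I gene and its protein is now known as a subunit of complex IV.

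In complex II, Sdhb, the iron-sulfur subunit, was at -0.22, -0.05 and -0.04 in wildtype mice at day 7 and at 0.59, 0.47 and 0.27 at day 14. It rose by 0.55 ± 0.12 (SE, adjusted p = 0.018) and the days did not overlap. Sdhd, a membrane anchor, differed by 0.42 ± 0.14 (adjusted p = 0.0925), while Sdha, the flavoprotein that oxidises succinate, differed by 0.03 ± 0.09 and Sdhc, the other anchor, by -0.08 ± 0.12. Sdha is the average of 4 probe sets, which did not all differ in the same direction. In wildtype mice 1 of them went from -0.28, -0.22 and 0.17 to 0.37, -0.02 and 0.19. Another went from 0.02, 0.52 and 0.24 to -0.03, 0.16 and 0.10. As averages over probe sets, the 4 subunits of this complex spanned differences from -0.08 to 0.55.

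Complex III held genes that moved in opposite directions. Uqcrfs1, the Rieske iron-sulfur protein, was at -0.07, -0.51 and 0.05 in wildtype mice at day 7 and at 0.53, 0.33 and 0.55 at day 14, a rise of 0.64 ± 0.14 (SE, adjusted p = 0.0217). Cyc1, the cytochrome c1 of the complex, was at -0.40, -0.33 and -0.04 and then at 0.10, 0.37 and 0.30, a rise of 0.51 ± 0.12 (adjusted p = 0.0292). Both are catalytic subunits, and neither overlapped between the days. Uqcrc2, a core protein with no redox group, was at 0.21, 0.17 and 0.33 at day 7 and at -0.73, -0.59 and -0.39 at day 14, a difference of -0.81 ± 0.17 (adjusted p = 0.0173). Both of its probe sets gave -0.81. Its partner core protein Uqcrc1 differed by 0.17 ± 0.14 (adjusted p = 0.546).

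In complex IV, Cox6b1, which bridges the dimer, was the gene past the threshold, at -0.34, -0.28 and -0.06 in wildtype mice at day 7 and 0.54, 0.10 and 0.15 at day 14. It rose by 0.49 ± 0.14 (SE, adjusted p = 0.0496), and the values did not overlap. This call held in 1 of the 12 fits that each left out 1 array, and in 6 of 13 other alternatives. Cox4i1, Cox5a and Cox5b, the subunits that lie around the mitochondrially encoded core, differed by 0.29 ± 0.09 (adjusted p = 0.0881), 0.07 ± 0.12 and 0.22 ± 0.10. The 10 widely expressed genes placed in this complex by their Cox symbols were all above 0, with a median of 0.24. Ndufa4, counted with complex I by its symbol, is not among them and was below 0. The 7 isoforms known to be restricted to certain tissues had a median of 0.09.

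In complex V, Atp5mpl and Atp5k, small proteins of the membrane part, rose. Atp5mpl was at -0.27, -0.16 and -0.07 in wildtype mice at day 7 and at 0.82, 0.34 and 0.54 at day 14 (0.73 ± 0.13 SE, adjusted p = 0.00894). Atp5k, with NRF1 letters upstream, was at -0.28, -0.15 and 0.01 and then at 0.51, 0.28 and 0.41 (0.54 ± 0.13, adjusted p = 0.0266). The values of each gene were all higher at day 14. The catalytic head showed a spread of differences: Atp5a1 was at 0.50 ± 0.21 (adjusted p = 0.195) and Atp5b, the catalytic beta subunit, at -0.20 ± 0.13 (adjusted p = 0.416). The Atp5a1 value came from 1 of 3 probe sets, which differed by 1.57, while the others were at -0.03 and -0.04. The 3 genes of the c-ring differed by 0.21 to 0.30, and 0 of them passed the threshold, with 2 at an unadjusted p under 0.05 in limma. Ndufaf5 (0.54 ± 0.14, adjusted p = 0.0411) was the assembly factor of complex I that rose.

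**Figure D2:**
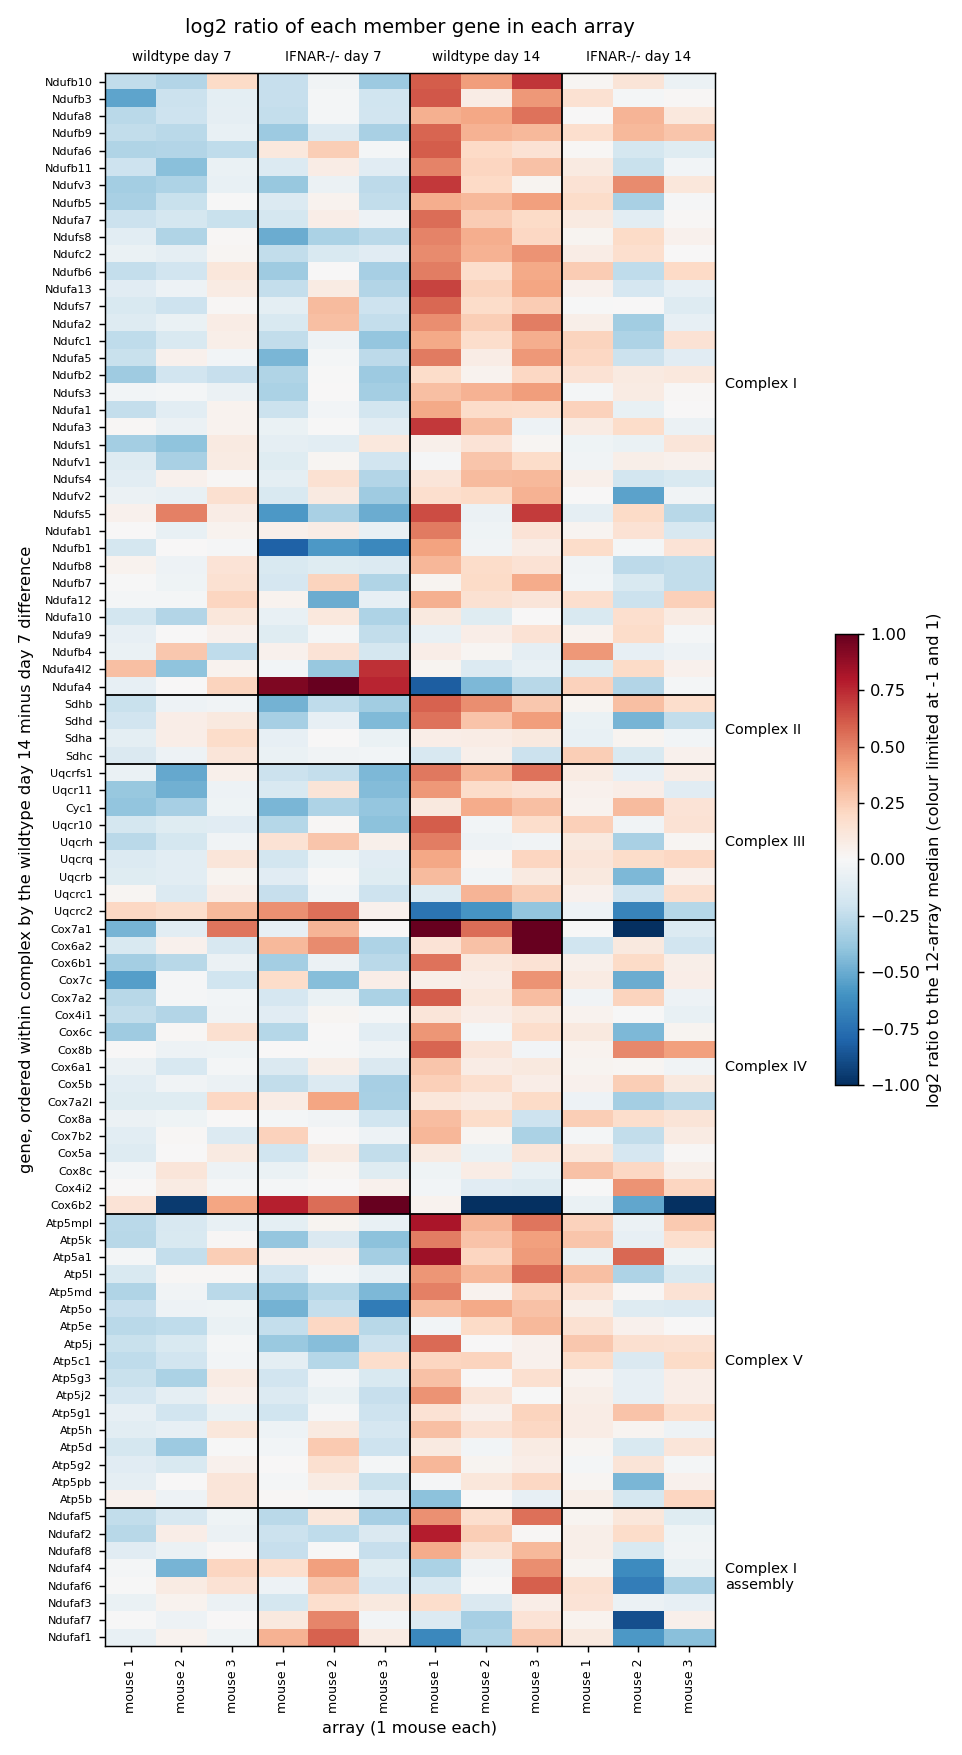
Log2 ratio of each of the 91 member genes (rows, by complex, ordered by the wildtype difference between days) in each of the 12 arrays (columns), with colour limited at -1 and 1. The wildtype day 14 columns are mostly red, while Ndufa4, Uqcrc2 and Cox6b2 at the foot of their blocks run the other way.

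The wildtype count depended on single arrays and on the control signal of RNA integrity. The number of 20 members fell to 5 without day 7 mouse 1 and 6 without day 7 mouse 2. It was 8 without day 14 mouse 1, 13 without day 14 mouse 2 and 9 without day 14 mouse 3. Over all genes, 705 were higher and 746 lower with all arrays. Without these arrays, in the same order, 323, 318, 603, 416 and 330 of all genes were higher. Those lower were 393, 468, 487, 444 and 443. Day 7 mouse 1 is the array with raised lung cell markers, and without it the member median was 0.269, with 80 of 91 above 0. Without it and IFNAR-/- day 7 mouse 3, an alternative chosen after seeing the data, 4 members were higher and 1 lower. Over all genes 345 were then higher and 475 lower. Atp5mpl, Ndufa8, Ndufb9 and Ndufc2 passed whichever 1 of the 12 arrays was left out. Besides Cox6b1, Ndufb2 and Ndufs3 (3 of the 12 fits each), Ndufaf5 (4) and Ndufb5 (5) passed least often. With the 5′ minus 3′ signal as a covariate 0 of 91 members passed, over all genes 51 were higher and 103 lower in place of 705 and 746, and the median difference of the members was 0.235, with 71 above 0. With the 18S signal as a covariate, also chosen after seeing the data, 2 of 91 members were higher and 0 lower. Over all 18193 genes 652 were then higher and 330 lower. The median of the members was 0.278 in this fit, with 79 above 0. The days within wildtype differ in both signals with no overlap, so their part cannot be told apart from that of the day.

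In IFNAR-/- mice, 9 of 91 members rose and 3 fell between the days, against 4.08% of all genes higher and 8.25% lower (12.3% in either direction). The median difference was 0.13, against 0.02 over all genes, with 64 of 91 above 0. The days did not overlap for 25 higher and 3 lower members, against 16.2% and 17.8% of all genes. The member median was -0.15, 0.00 and -0.20 in the day 7 arrays and 0.06, -0.07 and 0.01 in the day 14 arrays, so here the days overlapped. By complex, the median difference was 0.13 in complex I, 0.06 in II, 0.16 in III, 0.08 in IV, 0.16 in V and -0.17 over the assembly factors.

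The gene with the lowest p was Ndufb1, a small accessory subunit of complex I. It was at -0.81, -0.58 and -0.65 in IFNAR-/- mice at day 7 and at 0.19, -0.02 and 0.13 at day 14, a rise of 0.78 ± 0.13 (SE, adjusted p = 0.0036). Cyc1 went from -0.45, -0.31 and -0.39 to 0.03, 0.31 and 0.14 (0.54 ± 0.12, adjusted p = 0.017). Sdhb went from -0.47, -0.26 and -0.35 to 0.02, 0.30 and 0.17 (0.52 ± 0.12, adjusted p = 0.0159), and Ndufb9 from -0.37, -0.13 and -0.33 to 0.17, 0.32 and 0.28 (0.53 ± 0.11, adjusted p = 0.0107). The days did not overlap for these 4 genes. The others that rose were Atp5j (0.53), Atp5md (0.48), Ndufs8 (0.44), Atp5k (0.44) and Cox5b (0.37). Cycs, cytochrome c itself and not a member, rose by 0.40 ± 0.09 (adjusted p = 0.0152) in IFNAR-/- mice and differed by 0.01 ± 0.09 in wildtype mice.

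Ndufa4, Uqcrc2 and Cox6b2 fell in IFNAR-/- mice. Ndufa4 was at 0.93, 1.01 and 0.77 at day 7 and at 0.23, -0.29 and -0.02 at day 14, a difference of -0.93 ± 0.17 (SE, adjusted p = 0.00572) with no overlap. Uqcrc2 went from 0.46, 0.55 and 0.04 to -0.05, -0.66 and -0.29 (-0.68 ± 0.17, adjusted p = 0.027). Cox6b2, a complex IV isoform known from testis, went from 0.78, 0.55 and 1.31 to -0.06, -0.52 and -1.25 (-1.50 ± 0.44, adjusted p = 0.0474). Its 3 values at day 14 were wide apart, as were those of wildtype mice at both days, with -0.95 to 0.39 at day 7 and -1.34 to 0.04 at day 14. Only 1 probe set measures Cox6b2.

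The number of 12 members fell to 2 without IFNAR-/- day 7 mouse 1 and 6 without day 7 mouse 3. It was 6 without day 14 mouse 2 and 5 without day 14 mouse 3. Over all genes, 743 were higher and 1501 lower with all arrays. Without these arrays, in the same order, 290, 373, 480 and 438 of all genes were higher. Those lower were 804, 1012, 956 and 1012. Without both IFNAR-/- day 7 mouse 3 and IFNAR-/- day 14 mouse 2 the number of members was 3. It was also 3 without both arrays with raised lung cell markers. Ndufa4 and Ndufb1 passed in these and in each of the other alternatives run for this comparison, while Atp5k held in 2 and Cox6b2 in 4 of the 12 fits that each left out 1 array. With the 5′ minus 3′ signal as a covariate the number of members called was 7.

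The 2 comparisons between days share no arrays, though they share the fitted spread. Atp5k, Cyc1, Ndufb9, Ndufs8 and Sdhb rose in both genotypes, which is 26.3% of the 19 wildtype rises and 55.6% of the 9 in IFNAR-/- mice, and Uqcrc2 fell in both. Differences of 60 members were above 0 in both genotypes and 6 were below 0 in both. The wildtype difference was the larger in 71 of 91 members, against 9245 of 18193 genes. How many of all genes passed, or lay above 0, in both genotypes is not given here. The overlap between the genotypes thus cannot be called particular to the respiratory chain.

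**Figure D3:**
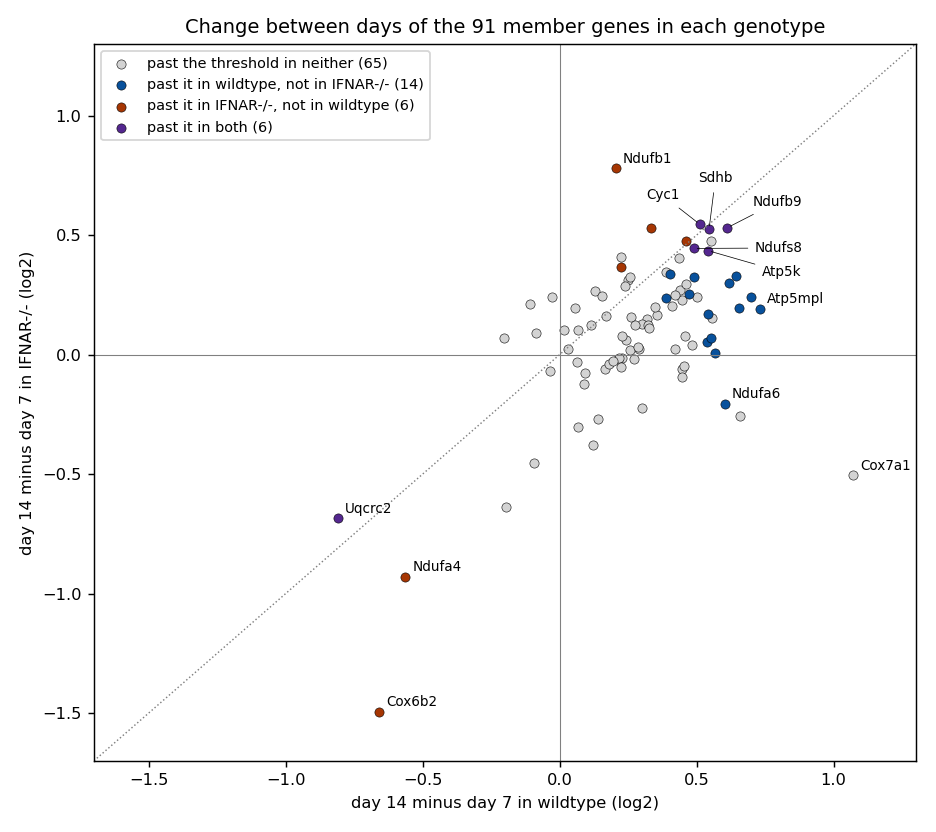
Day 14 minus day 7 difference (log2) of each member gene in wildtype (horizontal axis) and IFNAR-/- mice (vertical axis), coloured by whether its adjusted p was under 0.05 in either, with the dotted line marking equal differences. Most points lie below the line and to the right of 0, and Uqcrc2, Ndufa4 and Cox6b2 lie at the lower left.

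At day 7 the genotypes differed in Ndufa4 and Ndufb1, which is 1 member higher and 1 lower in IFNAR-/- mice, against 1.29% and 1.35% of all genes (2.64% in either direction). Ndufa4 was at 0.93, 1.01 and 0.77 in IFNAR-/- mice and at -0.08, 0.00 and 0.22 in wildtype mice, 0.86 ± 0.17 higher (SE, adjusted p = 0.0212). Ndufb1 was at -0.81, -0.58 and -0.65 against -0.17, 0.01 and -0.01 (-0.62 ± 0.13, adjusted p = 0.0272). In each gene the 2 groups were clearly apart, and each rests on 1 probe set. Over all members the median difference was -0.03, against 0.00 over all genes, with 40 above 0 and 51 below, and the groups did not overlap for 5 higher and 7 lower members (12.4% and 11.6% of all genes). The share of members past the threshold was thus near that of all genes. Neither call held without IFNAR-/- day 7 mouse 1 or 2 or wildtype day 7 mouse 1 or 2, and Ndufb1 was also lost without mouse 3 of either group. The member median was 0.01 without IFNAR-/- day 7 mouse 3 and 0.03 without wildtype day 7 mouse 3, so it has no settled sign.

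By day 14 more members lay below 0 in IFNAR-/- mice than above, yet few passed the test. Past it were 0 higher and 3 lower members, Sdhd, Cox7a1 and Ndufb8, against 1.75% and 3.29% of all genes (5.04% in either direction). The 3 lower members are 3.3% of the members, so the share called lower was that of all genes. The median difference was -0.20, against 0.00 over all genes, and 77 of 91 members were below 0. At an unadjusted p under 0.05 in limma 29 members were lower and 2 higher, against 2289 and 1530 of 18193 genes. Groups did not overlap for 32 lower members and 1 higher, against 13.3% and 10.2% of all genes. The medians by complex were -0.29 in complex I, -0.19 in II, -0.15 in III, -0.11 in IV and -0.16 in V, and -0.27 over the assembly factors, all 8 of which were below 0.

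Sdhd was at -0.07, -0.47 and -0.25 in IFNAR-/- mice at day 14 and at 0.55, 0.28 and 0.42 in wildtype mice (-0.68 ± 0.14 SE, adjusted p = 0.0222). Ndufb8, an accessory subunit of complex I, was at -0.04, -0.26 and -0.24 against 0.33, 0.18 and 0.14 (-0.40 ± 0.10, adjusted p = 0.0423). Cox7a1, a complex IV isoform of heart and skeletal muscle, had 0.00, -1.11 and -0.14 against 1.59, 0.56 and 1.03 (-1.48 ± 0.34, adjusted p = 0.0335). The genotypes did not overlap in any of these 3 genes. Leaving out IFNAR-/- day 14 mouse 3, wildtype day 14 mouse 1 or wildtype day 14 mouse 3 left 0 of them, and leaving out IFNAR-/- day 7 mouse 1 left 1. Of the 12 fits that each left out 1 array, Ndufb8 passed in 1, Cox7a1 in 7 and Sdhd in 9. With the 5′ minus 3′ signal as a covariate 0 members passed, with a member median of -0.132, and over all genes 17 were higher and 20 lower. The wildtype arrays of this day are those with the low signal, so its part cannot be told apart from that of the genotype here.

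**Figure D4:**
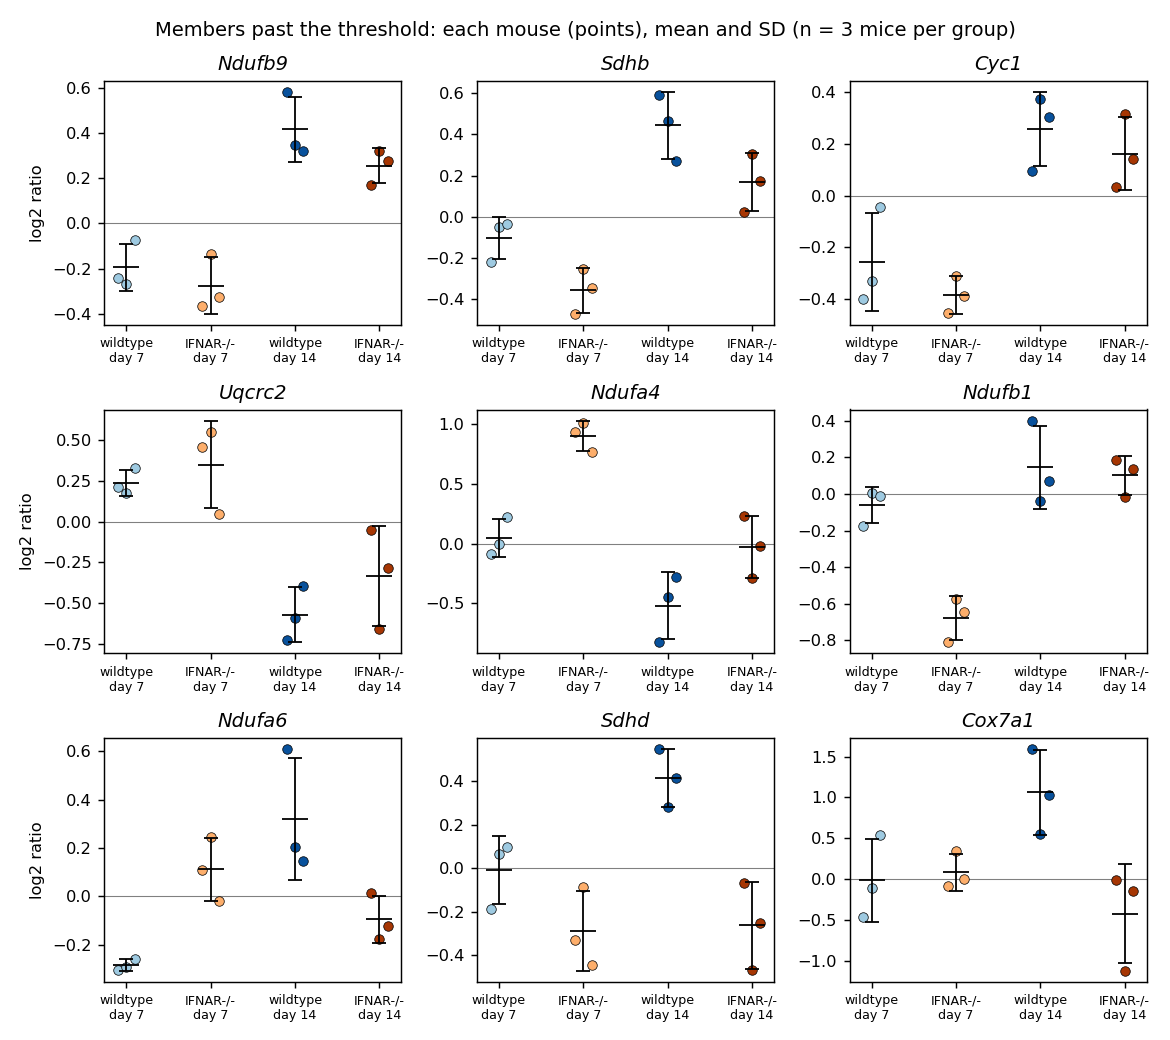
Log2 ratio (vertical axis, a scale for each gene) of 9 member genes past the threshold in at least 1 comparison, in each mouse of the 4 groups (points), with the mean and SD of 3 mice. Ndufb9, Sdhb and Cyc1 are higher at day 14 in both genotypes and Uqcrc2 is lower, while Ndufa4 and Ndufb1 set the IFNAR-/- day 7 mice apart and Sdhd and Cox7a1 the wildtype day 14 mice.

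The genotype difference changed between the days in 1 member, Ndufa6, an accessory subunit of complex I, against 1.14% of all genes with a change above 0 and 1.34% below (2.48% in all). Ndufa6 was at -0.30, -0.29 and -0.26 in wildtype and 0.11, 0.24 and -0.02 in IFNAR-/- mice at day 7, and at 0.61, 0.20 and 0.15 and 0.01, -0.17 and -0.12 at day 14. The order of the genotypes was thus opposite on the 2 days, and the groups overlapped on neither. The difference, IFNAR-/- minus wildtype, was 0.39 ± 0.13 at day 7 and -0.41 ± 0.13 at day 14, a change of -0.81 ± 0.18 (SE, adjusted p = 0.0438), although neither day alone passed the test (adjusted p = 0.153 and 0.0909). The call held without IFNAR-/- day 7 mouse 3 or wildtype day 14 mouse 1 and was lost without any of the other 10 arrays. Over all members the median change was -0.19, against -0.01 over all genes, with 71 of 91 below 0. For the other members it was not shown that the change between days differed between the genotypes.

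Among the tissue-restricted isoforms, Cox6a2, known from muscle, differed by 0.66 ± 0.28 (SE, adjusted p = 0.185) between the days in wildtype mice, with 1.27 in day 14 mouse 3 against 0.14 and 0.29 in the others. Its widely expressed partner Cox6a1 differed by 0.23 ± 0.10, Cox7a2, the partner of Cox7a1, by 0.45 ± 0.14, and Cox7a1 itself by 1.07 ± 0.34 (adjusted p = 0.0844). Cox4i2, known from lung, differed by -0.11 ± 0.11, Cox7b2 by 0.09 ± 0.16, Cox8b by 0.26 ± 0.16 and Cox8c by -0.03 ± 0.10, and the partner Cox8a by 0.13 ± 0.13. Ndufa4l2, the paralog of Ndufa4 known for its response to low oxygen, differed by -0.03 ± 0.25 in wildtype and by -0.07 ± 0.25 in IFNAR-/- mice. Its paralog Ndufa4 fell in the latter, as given above. The 10 heart muscle markers had medians between -0.08 and 0.34 in the 12 arrays, and 0 of them passed the threshold in any of the 5 comparisons. At what level these isoforms are expressed in CD11c+ cells cannot be read from ratios.

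Members varied about as much as other genes. Their SD over the 12 arrays had a median of 0.245, against 0.223 over all genes, and 25.3% of members had a range of 1 or more, against 32.4% of all genes. Of the 51 members with several probe sets, all probe sets were above 0 in 36 and below in 1 for the wildtype days, with both signs in 14. For IFNAR-/- minus wildtype at day 14, all were below 0 in 34, above in 2 and of both signs in 15.

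Other mitochondrial lists can be read against the shares of all genes given above, which for the days were 3.88% higher and 4.1% lower in wildtype and 4.08% and 8.25% in IFNAR-/- mice. Of 76 mitochondrial ribosomal protein genes, which make the machinery that translates the mitochondrially encoded subunits, 20 rose (26.3%) and 0 fell between the days in wildtype mice, with a median of 0.31. Mrpl23 rose by 0.71 ± 0.09 (SE, adjusted p = 0.00188) and Mrpl22 by 0.83 ± 0.11 (adjusted p = 0.00192). In IFNAR-/- mice 6 rose (7.89%) and 1 fell (median 0.13), with Mrpl52 at 0.76 ± 0.13 (adjusted p = 0.00492) and Mrps18a at 0.52 ± 0.09 (adjusted p = 0.00548). At day 14 of infection 11 of the 76 were lower in IFNAR-/- mice (14.5%, against 3.29% of all genes) and 0 higher (median -0.25), with Mrpl22 at -0.68 ± 0.11 and Mrps12, a ribosomal small-subunit protein, at -0.86 ± 0.16. Mrpl44 and Mrps12 had a change of the genotype difference of -1.02 ± 0.18 and -0.97 ± 0.22.

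**Figure D5:**
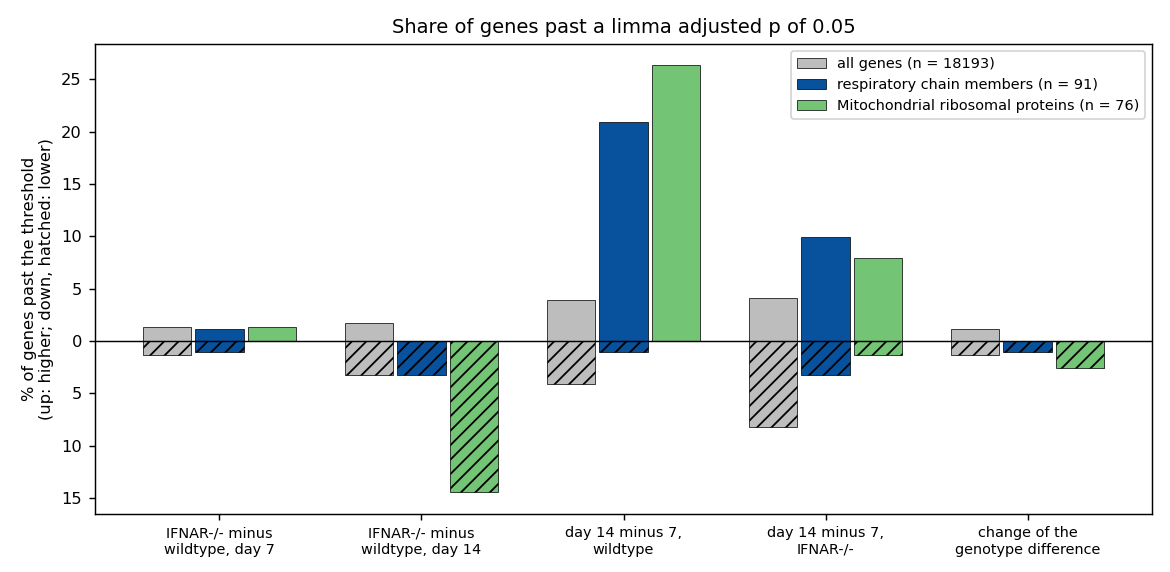
Percent of genes past a limma adjusted p of 0.05 (higher above the line, lower below it and hatched) in the 5 comparisons for all 18193 genes, the 91 respiratory chain members and 76 mitochondrial ribosomal protein genes. In the wildtype days both mitochondrial groups reach above 20% higher, against 3.88% of all genes, while at day 7 all 3 groups are near each other.

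Of 42 assembly factors outside the symbol rule, 5 rose (11.9%) and 0 fell in wildtype mice between the days (median 0.17). Lowest in p were Sdhaf1, which matures Sdhb, at 0.72 ± 0.12 (SE, adjusted p = 0.00715) and Coa7 at 0.64 ± 0.12 (adjusted p = 0.00878). Sco2, a copper carrier to complex IV that was picked after its value was seen, had the largest difference of this list, 0.74 ± 0.15 (adjusted p = 0.0137). In IFNAR-/- mice 1 rose (2.38%) and 3 fell (7.14%), shares below those of all genes (median -0.02). At day 14, 4 (9.52%) were lower in IFNAR-/- mice and 0 higher, among them Coa7 at -0.75 ± 0.12 and Sco1, another copper carrier to that complex, at -0.73 ± 0.17. Atpaf2, an assembly factor of complex V, was 0.73 ± 0.12 higher in IFNAR-/- mice at day 7 (adjusted p = 0.00775), and its genotype difference changed by -0.73 ± 0.17. Of 26 protein import genes, 3 rose in wildtype mice (median 0.28; Timm10 0.78 ± 0.15, Timm8b 0.62 ± 0.14) and 3 in IFNAR-/- mice (median 0.07; Timm23 0.57 ± 0.12, Timm17a 0.45 ± 0.10), and 0 fell in either. This is 11.5% of the list in each genotype.

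Of 26 genes of the citric acid cycle and pyruvate entry, 2 rose (7.69%) in wildtype mice, Fh1 (0.56 ± 0.15 SE) and Suclg1 (0.37 ± 0.10), which act beside complex II in the cycle. In IFNAR-/- mice 2 rose (7.69%) and 3 fell (11.5%, near the 8.25% of all genes). Pdk4, a kinase that shuts pyruvate dehydrogenase, fell by 1.92 ± 0.32 (adjusted p = 0.00382), and Pdk2, another such kinase, fell by 1.16 ± 0.21 (adjusted p = 0.0059). Acod1, which makes itaconate, an inhibitor of complex II, was the member of this list furthest above 0, at 2.03 ± 0.41 (adjusted p = 0.00943), and it falls outside the naming rule and was picked after its value was seen. Of 20 regulators of mitochondrial biogenesis, 2 rose and 1 fell in wildtype mice (10% and 5%) and 2 fell in IFNAR-/- mice (10%, near the share of all genes). Their median difference was 0.14 in wildtype mice, with 15 above 0, and -0.26 in IFNAR-/- mice, with 16 below 0. For IFNAR-/- minus wildtype it was 0.26 at day 7 (18 above 0, 0 called) and -0.24 at day 14 (15 below 0, 1 called lower). Nrip1, a corepressor of mitochondrial genes, fell in both genotypes, with differences of -1.24 ± 0.16 (adjusted p = 0.00181) and -1.13 ± 0.16 (adjusted p = 0.00187). Mterf4 fell in IFNAR-/- mice (-0.60 ± 0.13, adjusted p = 0.014) and was lower in them at day 14 (-0.54 ± 0.13, adjusted p = 0.04). Its genotype difference changed by -0.86 ± 0.19 (adjusted p = 0.039). Of 12 genes of ubiquinone synthesis, 1 rose (8.33%) and 0 fell in wildtype mice (median 0.10). In IFNAR-/- mice 1 rose and 1 fell (8.33% each), with a median of -0.22 and 9 below 0. Coq7 rose in both genotypes, by 0.76 ± 0.19 and 0.73 ± 0.19, and was lower in IFNAR-/- than in wildtype mice at day 14 (-0.76 ± 0.19). Coq8a fell in IFNAR-/- mice, with a difference of -0.48 ± 0.12 (adjusted p = 0.0294). Ucp3, an uncoupling protein, was the 1 gene past the threshold among 8 uncoupling proteins and adenine nucleotide carriers (12.5%). It fell in both genotypes, with differences of -1.04 ± 0.22 and -1.18 ± 0.22. Of the mitochondrially encoded subunits ND5 was the gene measured, and it passed in 0 of the 5 comparisons (adjusted p from 0.231 to 0.928; unadjusted 0.0467 at day 14).

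Markers of the cells in the isolate moved over the same groups. Shares of all genes between the days were 3.88% higher and 4.1% lower in wildtype and 4.08% and 8.25% in IFNAR-/- mice. For IFNAR-/- minus wildtype they were 1.29% and 1.35% at day 7 and 1.75% and 3.29% at day 14. Of 12 alveolar macrophage markers, 7 fell in wildtype (median -1.48) and 5 in IFNAR-/- mice (median -1.40) between the days, and 0 rose. Their median by array was between -0.13 and 0.75 in wildtype mice at day 7, 0.92 and 1.09 in IFNAR-/- mice at day 7, -1.56 and -0.67 in wildtype mice at day 14, and -0.61 and 0.07 in IFNAR-/- mice at day 14. Of 16 dendritic cell markers, 10 were lower in IFNAR-/- mice at day 7 and 5 higher at day 14. Between the days 10 of them rose and 0 fell in IFNAR-/- mice (median 0.75), while 1 rose and 5 fell in wildtype mice (median -0.61). Of 13 T cell markers, 9 rose and 0 fell in IFNAR-/- mice between the days (median 0.89), 0 passed in wildtype mice (median -0.39; 6 lower at an unadjusted p under 0.05 in limma), and 6 were higher in IFNAR-/- mice at day 14. Of 9 NK cell markers, 3 rose in IFNAR-/- mice (median 1.41) and 1 fell in wildtype mice (median -0.70). Among 10 neutrophil markers, 1 was higher in IFNAR-/- mice at day 7 and 1 at day 14. Their median was 2.05 in IFNAR-/- day 7 mouse 3, the array with raised lung cell markers. Markers of lung cells that lack CD11c had median differences below 0 between the days in both genotypes, although few passed the test. The 17 epithelial markers had a median difference of -1.21 in wildtype mice, with 15 below 0, 1 called higher and 1 lower, and of -0.75 in IFNAR-/- mice, with 14 below 0, 1 called higher and 2 lower. The 14 endothelial markers had -0.99, with 12 below 0 and 1 called lower, and -1.18, with 13 below 0 and 1 called lower. These differences include the 2 day 7 arrays with raised lung cell markers, wildtype mouse 1 and IFNAR-/- mouse 3. By array, the epithelial median in IFNAR-/- mice was 0.06, -0.04 and 2.13 at day 7. At day 14 it was -0.10, 0.12 and 0.01, so the days overlapped. In wildtype mice it was 1.86, 0.37 and -0.23 and then -0.48, -0.32 and -0.44. The endothelial medians did not overlap between the days in either genotype. The wildtype day 14 arrays thus had the lowest macrophage markers and the highest member medians. Fewer cells of a type and less RNA per cell cannot be told apart in these samples, and the part of the cell makeup in the member differences was not tested.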

How the data were processed

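RNA of CD11c+ lung cells from 12 mice (4 groups of 3) was measured on Affymetrix arrays. Per the submitters' processing notes the authors used RMA (background correction, normalization between arrays and 1 summary value per probe set), with no version given. The deposited values are a linear ratio per probe set. For 100% of probe sets the 12 ratios have a median between 1 minus 0.02 and 1 plus 0.02, so they were read as divided by about that median, a step no source used here states. Brightness over background is lost in such ratios, and precision is limited by the count of arrays.

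Values were used as log2 ratios without further normalization or filter (3 were missing). Of 45101 probe sets 34945 carried 1 gene symbol in the platform annotation, and these were averaged to 18193 genes. Probe sets shared with another gene (10 for members) were left out. All 91 members matched the RefSeq mouse gene table, and RefSeq windows of assembly GRCm38.p6 gave the promoters. A model with 4 group means (8 residual degrees of freedom) was fitted with limma 3.58.1 in R 4.3.3, two-sided, with Benjamini-Hochberg adjustment over all genes and a threshold of 0.05. The fit was tested on simulated data first. Of 50 genes changed by a log2 of 0.5 in simulated wildtype day 14 arrays 20% passed, and of 50 changed by 1 74% passed. Of the 17993 unchanged genes, out of 18193, 0.0111% passed. Far fewer genes changed in this simulation than the 1451 that passed between the days in wildtype mice. The adjusted p depends on how many genes change, so these shares do not carry over to the real comparisons. How often changes of the size of most member differences go uncalled in the data was thus not measured.

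The members, gene lists and alternatives were chosen with earlier results of these data known. Named are up to 4 members with the lowest p per direction and comparison, 11 core subunits, the tissue-restricted isoforms with their partners, cytochrome c, and up to 2 genes of each other list; 0 columns of values were left unused. Mouse numbers mark separate animals, and same-numbered mice did not deviate together (correlations from -0.397 to 0.232), so they were not treated as pairs. The alternatives were each array left out, IFNAR-/- day 7 mouse 3 and IFNAR-/- day 14 mouse 2 left out, quantile normalization, median centring, other probe set rules, a trended prior, array weights, only the compared arrays, a variance filter, control signals as covariates, a replicate block and a 1.5-fold rule. Leaving out both arrays with raised lung cell markers and using the 18S signal as a covariate were chosen after seeing the data.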

Additional observations from a re-analysis of the deposited data

Results flagged for a closer look

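Ndufa6, an accessory subunit of complex I, stood out because its genotype difference was not the same on the 2 days: the interaction test of limma gave a log2 change of -0.809 (SE 0.18, adjusted p = 0.0438, n = 3 mice per group). Over the alternatives run for this gene the change kept its direction, from -1.01 to -0.66. The call itself was lost in most fits that left out 1 array. It was also lost with a replicate block and with each of the control signals as a covariate. As 1 lower member of 91, it makes a share of 1.1%, near the 1.34% of all genes. It rests on 1 probe set.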

How the results depend on the processing

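All 38 calls of members kept their direction in every alternative run, and so did the member medians of the comparisons other than the genotypes at day 7. That median, -0.0263 with all arrays, turned to 0.00631 without IFNAR-/- day 7 mouse 3 (and without it and IFNAR-/- day 14 mouse 2), 0.0268 without wildtype day 7 mouse 3, 0.00236 after repeated quantile normalization and 0.0248 with poly-A as covariate. The numbers of members called were less stable, and the causes were not tested. Leaving out each array in turn gave 5 to 27 calls for the wildtype days (20 with all arrays), 2 to 12 for the IFNAR-/- days (12), 0 to 2 for the genotypes at day 7 (2), 0 to 4 at day 14 (3) and 0 to 1 for the change of the genotype difference (1). With the 5′ over 3′ covariate these were 0, 7, 0, 0 and 0, with poly-A as covariate 5 for the wildtype days, 1 at day 7 and 0 for the change. Over all genes the 5′ over 3′ covariate left 541 higher and 1108 lower for the IFNAR-/- days. It left 152 and 173 at day 7 and 1 and 2 for the change. Poly-A left 184 and 631 for the wildtype days, 127 and 150 at day 7 and 104 and 71 for the change. Array weights gave 28 for the IFNAR-/- days, 6 at day 7, 10 at day 14 and 3 for the change. These weights raised the calls over all genes too. For the IFNAR-/- days 2082 of 18193 genes were then higher and 2494 lower, in place of 743 and 1501. At day 7 these were 952 and 930, in place of 235 and 246. At day 14 they were 766 and 1133, in place of 318 and 599. For the change they were 773 and 992, in place of 208 and 243. Without IFNAR-/- day 7 mouse 3 and IFNAR-/- day 14 mouse 2, 3 were called for the IFNAR-/- days and 0 for the change. Of the alternatives chosen after seeing the data, leaving out both arrays with raised lung cell markers gave 5 for the wildtype days, 3 for the IFNAR-/- days and 0 at day 7 and for the change, and the 18S covariate 2 for the wildtype days and 0 for the change. Fits of only the compared arrays gave 6 for the IFNAR-/- days and 0 at day 14. Repeated quantile normalization gave 1 at each day, and a trended prior 1 at day 7. The widest probe set or the variance filter gave 0 for the change. With probe sets tested one by one, the counts are of 180 member probe sets and not of 91 genes. Past the threshold were then 22 probe sets for the IFNAR-/- days, 5 at day 14 and 0 for the change. Of all 34945 probe sets 1032 were higher and 2666 lower for the IFNAR-/- days, and 661 and 1194 at day 14. A 1.5-fold rule left 8 and 4 for the wildtype and IFNAR-/- days. The median for the wildtype days moved from 0.302 to 0.425 with poly-A, and that of the change from -0.192 to -0.0654 with 5′ over 3′ and -0.291 with poly-A. A replicate block by mouse number, which is not a pairing here, gave 1 call at day 7, 2 at day 14, 14 and 9 for the days and 0 for the change.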
